A study of Mus musculus with 8 samples.

Results

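The 9 genes described here encode the core of polyamine metabolism in mouse oocytes, and each was found by its exact symbol among the 25574 genes of the expression table: Odc1, Amd1, Srm and Sms for synthesis, Sat1, Paox and Smox for breakdown and interconversion, and Oaz1 and Azin1 for control of synthesis. All 9 transcripts were found in both the non-polysomal (NP) and the polysomal (P) RNA pools of oocytes at nuclear envelope breakdown. Oaz1 had the highest mean level in both pools. Paox had the widest range in P, from 12.5 to 1327 FPKM (fragments per kilobase of transcript, scaled to the total of the library). Srm was the only one of the 9 whose levels did not overlap between the pools, being higher in NP. None of the 9 passed the threshold after correction over all genes in the limma and voom fits made here.

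The pools came from sucrose gradients of 10 fractions, and each of the 4 NP and 4 P libraries traced back to a profile of 200 oocytes. NP combined fractions 2 to 5, which hold free RNA particles, ribosomal subunits and single ribosomes. P combined fractions 6 to 10, the region of polysomes, where several ribosomes sit on one mRNA. The study left open whether heavy stored RNA particles also sediment there, so RNA in P need not all be under translation. All oocytes, in NP and P alike, came from CD1 females of 8 weeks that had been given 5 IU of PMSG 46 h earlier. They were isolated in 100 µM IBMX, an inhibitor that holds oocytes at the germinal vesicle stage, grown without it for 180 min and exposed to 0.1 mg/ml cycloheximide for 10 min, which holds ribosomes on the mRNA. Each profile is thus of pooled oocytes, and no genotype or treatment separates the groups, which differ only in the gradient fractions taken. Libraries bear the replicate numbers 1 to 4 in each pool. The study's methods describe the 4 profiles as independent biological replicates, and each profile was split into both pools. The tests treat the libraries as unpaired, apart from a setting that pairs them by number. Their p-values thus measure the spread between libraries, not the spread of the difference within a profile.

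Polyamines are small organic cations (putrescine, spermidine and spermine) that bind RNA and are needed for ribosomes to work. Ornithine decarboxylase (Odc1) makes putrescine, S-adenosylmethionine decarboxylase (Amd1) supplies the aminopropyl groups, and spermidine synthase (Srm) and spermine synthase (Sms) add them. In the other direction, Sat1 acetylates spermine and spermidine, Paox oxidises the acetylated forms in peroxisomes, and Smox oxidises spermine directly. Antizyme (Oaz1) marks ornithine decarboxylase for degradation, and antizyme inhibitor (Azin1) captures antizyme. Oocytes at this stage barely transcribe, so the proteins they make depend on which stored mRNAs are loaded on ribosomes.

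NP libraries had been scaled to totals of 1299377 to 7594637, and P libraries to totals of 2677946 to 4699328. The median level of the 14292 genes tested was 3.41 to 5.55 FPKM in NP libraries and 1.05 to 3.02 FPKM in P libraries. Log2 fold changes are therefore read against the median of all genes, and a sign that another scaling turned is given beside the value. In P, 1 library held more than 75% of the summed FPKM for 24.2% of 9563 genes with a mean above 1, against 10.3% of 10739 genes in NP. All 10 oocyte marker genes had a mean above 1 FPKM in both pools, and their sum was 6495 to 13175 in NP and 8468 to 37068 in P. Of 12 granulosa and cumulus cell markers, 8 were above 0 in at least 1 library, and 4 (Inhba, Fst, Has2 and Foxl2) were at 0 in all. A mean above 1 FPKM was found for 2 of the 12 in NP and for 3 in P. The highest was Cyp19a1, with a mean of 30.03 FPKM in NP and 19.66 FPKM in P. The sum of the 12 was 15.3 to 94.4 in NP and 2.58 to 64.0 in P. The 4 blood cell markers measured were at 0 throughout. FPKM is a share of each pool, so the ratio of P to NP is not the fraction of an mRNA on polysomes, and in these bulk libraries fewer cells with a transcript and less of it per cell cannot be told apart.

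The first question was whether any of the 9 genes differed in level between P and NP. With limma on log2(FPKM + 1), 2-sided and with Benjamini-Hochberg adjustment over 14292 genes at a threshold of 0.1, 0 of the 9 genes were called. Over all genes tested, 3 (0.021%) were called lower in P and 0 (0%) higher in P. At an unadjusted p under 0.05, 1 of the 9 genes (Srm) passed, against 9.95% of all genes. With voom in limma, on the whole reads recovered from the steps of the FPKM values, 0 of the 9 genes were called as well, while 130 of 12448 genes (1.04%) were called lower and 1 (0.00803%) higher in P. With voom, 2 of the 9 (Amd1 and Srm) had an unadjusted p under 0.05, against 13% of all genes. The smallest adjusted p of the 9 was 0.416 in limma and 0.323 with voom.

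In 4 of the 9 genes the log2 fold change of P over NP was above 0 (Amd1, Paox, Sat1 and Azin1), against 28.6% of all genes tested. The median of the 9 log2 fold changes was −0.29, and that of all genes was −0.39, so that 6 of the 9 were above the median of all genes. This split depended on the scaling. With all libraries set to one median FPKM, 8 of the 9 were above 0, against 58.1% of all genes, whose median was 0.21. With quantile normalization 4 of the 9 were above 0, against 48.9% of all genes. The number above the median of all genes was 8 with one median, 4 with quantile normalization and 3 without NP replicate 2. All 4 NP libraries exceeded all 4 P libraries in 1 of the 9 genes, as in 5.92% of all genes. The opposite order was found in 0 of the 9 genes and in 0.357% of all genes. The plot of the levels by library shows how far the P libraries spread.

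**Figure D1:**
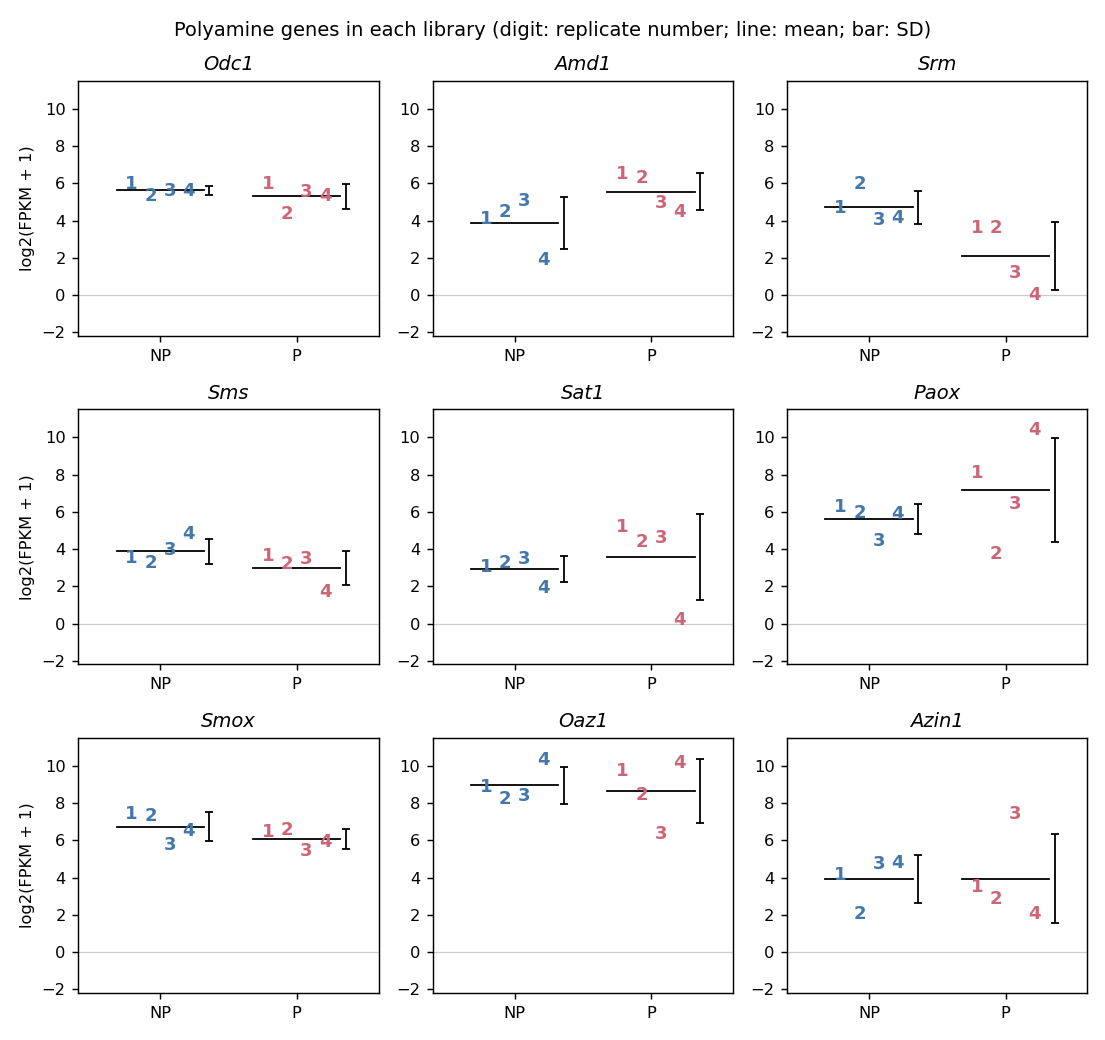
Levels of the 9 polyamine genes in each library as log2(FPKM + 1), with one panel per gene, NP in blue and P in red. Digits are replicate numbers, lines are means and bars are SD (n = 4). Srm is the only panel in which all NP libraries lie above all P libraries, and Paox in P runs from 12.5 to 1327 FPKM.

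Among the genes of synthesis, Odc1 stayed within a narrow range in NP, Amd1 was on average higher in P, and Srm and Sms were on average lower in P, but none passed the adjusted threshold. Odc1 (chromosome 12, 17544873 to 17551502, plus strand; all positions are of GRCm38 and span the whole gene) encodes the enzyme that starts the pathway. Its NP libraries 1 to 4 had 61.4, 39.0, 46.9 and 47.9 FPKM. Its P libraries 1 to 4 had 61.7, 19.7, 45.8 and 38.7 FPKM. The pools overlapped, with P replicate 2 clearly and P replicate 4 barely below the lowest NP library. The means were 48.8 ± 9.29 FPKM in NP and 41.5 ± 17.4 FPKM in P (SD, n = 4), and the log2 fold change was −0.32 ± 0.59 (SE, adjusted p = 0.821 in limma), with a sign that turned to 0.99 when libraries were set to one median. Within its own library, Odc1 was expressed above 85.3% of the genes tested on average in NP and above 84.9% in P. Several copies of Odc1 lie elsewhere in the genome, the longest alignment being to Gm9260 (95.1% identity over 1398 bases), and no source used here states how reads were divided among such copies.

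Amd1 (chromosome 10, 40287458 to 40302188, minus strand), which makes the donor of aminopropyl groups, had 16.0, 20.6, 32.6 and 2.63 FPKM in NP replicates 1 to 4. In P replicates 1 to 4 it had 89.5, 76.2, 30.4 and 21.4 FPKM. P replicates 1 and 2 exceeded every NP library, while P replicates 3 and 4 lay within the NP range. The means were 18.0 ± 12.4 FPKM in NP and 54.4 ± 33.5 FPKM in P (SD, n = 4). The log2 fold change of 1.69 ± 0.80 (SE) had a 95% interval of −0.03 to 3.42 and an adjusted p of 0.507 in limma. It was above 0 in every one of the 15 other settings tried, from 1.03 to 2.98, with adjusted p from 0.371 to 0.727. Amd1 has 4 processed pseudogenes and a nearly identical relative, Amd2 (99.6% identity over 3202 bases), among which reads may be divided. Amd2 had a mean of 0.126 FPKM in NP and 0.600 FPKM in P, and the pseudogene Amd-ps3 had 1.66 and 8.47 FPKM.

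Amd1 was also the only one of the 9 genes whose principal transcript carried a cytoplasmic polyadenylation element in its last 100 bases. This element is bound by CPEB1, which controls the poly(A) tail and translation of many oocyte mRNAs. The letters TTTTAT and TTTTAAT were searched on the sense strand of the GENCODE transcript, and neither contains the other. Of 10976 genes tested with a 3′UTR of at least 100 bases, 19.4% held one of them in that window. The Amd1 element began 78 bases before the transcript end and its AATAAA signal 34 bases before the end. It is shown here with its flanks, from chr10:40287517-40287546 on the minus strand of GRCm38, with the element in capitals:
Amd1: tggtgttggacTTTTAATcagctgaaatgt
A match in these letters is a description of the transcript and says nothing about whether the element was used.

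Srm (chromosome 4, 148591503 to 148594993, plus strand) encodes the enzyme that turns putrescine into spermidine. In NP replicates 1 to 4 it had 24.9, 61.6, 15.2 and 16.7 FPKM. In P replicates 1 to 4 it had 11.3, 11.1, 1.27 and 0 FPKM. Every P library lay below every NP library, and P replicates 3 and 4 were lowest, with 9 reads and 0 reads. A count of 0 in P replicate 4 allowed a level of up to 0.701 FPKM, for counting error alone. The means were 29.6 ± 21.8 FPKM in NP and 5.92 ± 6.13 FPKM in P (SD, n = 4). The log2 fold change was −2.61 ± 0.95 (SE), with a 95% interval of −4.65 to −0.56, an unadjusted p of 0.0161 and an adjusted p of 0.416 in limma. Its direction held in each of the 15 other settings, from −3.62 to −1.79, without a call in any.

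Sms (chromosome X, 157443855 to 157492287, minus strand), whose product makes spermine from spermidine, had 10.5, 8.58, 14.6 and 26.7 FPKM in NP replicates 1 to 4. It had 11.4, 8.04, 10.2 and 2.17 FPKM in P replicates 1 to 4. Outside NP replicate 4, the highest, and P replicate 4, the lowest, the values of both pools lay close together. The means were 15.1 ± 8.15 FPKM in NP and 7.97 ± 4.11 FPKM in P (SD, n = 4). Its log2 fold change was −0.89 ± 0.77 (SE, adjusted p = 0.667 in limma), and turned to 0.28 when libraries were set to one median. Sms-ps, a processed pseudogene, was 100% identical to the principal Sms transcript over 1101 bases, and reads could be divided between the copies.

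The genes of breakdown did not move together. Smox was on average lower in P, whereas Sat1 and Paox were on average higher in P but with a spread wider than the difference. Sat1 (chromosome X, 155213132 to 155216449, minus strand) encodes the rate-limiting acetyltransferase of polyamine breakdown. It had 7.11, 8.60, 10.2 and 2.75 FPKM in NP replicates 1 to 4. It had 34.9, 19.6, 23.2 and 0.135 FPKM in P replicates 1 to 4, where the last value rested on 1 read. P replicates 1 to 3 lay above all NP libraries, and P replicate 4 below all of them. The means were 7.17 ± 3.20 FPKM in NP and 19.4 ± 14.4 FPKM in P (SD, n = 4), with a log2 fold change of 0.66 ± 1.05 (SE, adjusted p = 0.794 in limma). Left-out libraries moved the log2 fold change from 0.13 without P replicate 1, and 0.32 without P replicate 3 or NP replicate 4, to 1.79 (adjusted p = 0.509) without P replicate 4. It was 0.26 with a pseudocount of 0.1. Sat1 also has processed pseudogenes, Gm5552 (96.7% identity over 515 bases) and Gm46610 (95.8% over 474 bases).

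Paox (chromosome 7, 140125657 to 140134334, plus strand) encodes the peroxisomal oxidase of acetylated polyamines. It had 75.3, 59.7, 20.6 and 57.0 FPKM in NP replicates 1 to 4. The P replicates 1 to 4 had 274, 12.5, 84.5 and 1327 FPKM. P replicates 1, 3 and 4 lay above every NP library, and P replicate 2 below every one. The means were 53.2 ± 23.1 FPKM in NP and 425 ± 612 FPKM in P (SD, n = 4), and P replicate 4 alone held 78.1% of the summed FPKM of P. The ratio of the means, 7.99 with all libraries, was 2.33 without P replicate 4, and the ratio of the medians was 3.07. The log2 fold change was 1.55 ± 1.08 (SE), with a 95% interval of −0.77 to 3.86 and an adjusted p of 0.636 in limma. It was 0.48 (adjusted p = 0.818) without P replicate 4 and 2.68 (adjusted p = 0.511) without P replicate 2.

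The lowest and highest levels of Paox rested on 71 reads in P replicate 2 and 6272 reads in P replicate 4, and NP libraries had 137 to 764 reads. Relative to the other genes of the same library, Paox exceeded 89.2%, 87.4%, 73.8% and 87.3% of genes in NP replicates 1 to 4. It exceeded 97.3%, 72.7%, 92.9% and 99.5% of genes in P replicates 1 to 4. Thus P replicate 2 was near the lowest NP library, and P replicate 4 placed Paox among the most abundant transcripts of its library. The summed FPKM of the 10 oocyte markers was 13175, 12363, 6495 and 12695 in NP replicates 1 to 4 and 24956, 9684, 8468 and 37068 in P replicates 1 to 4. The markers and Paox were both highest in P replicate 4, then P replicate 1, but in P replicate 3 Paox was above every NP library while the marker sum was the lowest of P. The part of the markers in the spread of Paox was not tested. The FPKM steps of Paox corresponded to a length of 1765 bp, against 4907 bp of merged exons in the GENCODE vM21 annotation, so its level relative to other genes depends on the transcript model used. A processed pseudogene, Gm19680, was 99.9% identical to the principal Paox transcript over 1358 bases, and reads could be divided between the copies.

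Smox (chromosome 2, 131491496 to 131525922, plus strand), encoding the oxidase that acts on spermine itself, had 172, 155, 52.0 and 89.0 FPKM in NP replicates 1 to 4. It had 85.7, 91.8, 41.7 and 59.5 FPKM in P replicates 1 to 4. NP replicates 1 and 2 exceeded every P library, while NP replicates 3 and 4 lay within the P range. The means were 117 ± 56.3 FPKM in NP and 69.6 ± 23.3 FPKM in P (SD, n = 4). Its log2 fold change was −0.66 ± 0.59 (SE, adjusted p = 0.674 in limma), and turned to 0.66 when libraries were set to one median.

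**Figure D2:**
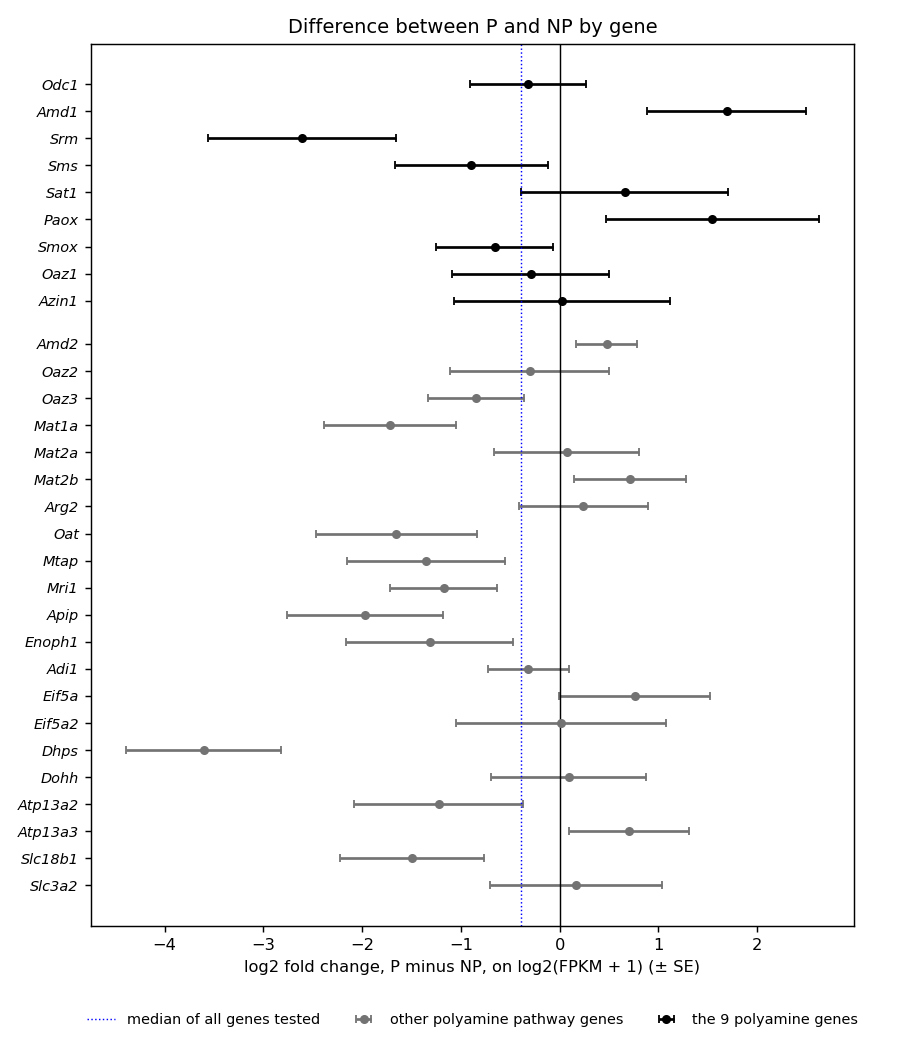
Log2 fold change of P over NP on the log2(FPKM + 1) scale for the 9 polyamine genes (black) and for 21 other genes of the pathway (grey), with SE as bars (n = 4 libraries in each pool). The dotted line marks −0.39, the median of all genes tested. Srm and Dhps lie farthest to the left of it, and Amd1 and Paox farthest to the right.

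Both regulators showed large differences between libraries of one pool, and the sign of their difference between pools changed with the setting. Oaz1 (chromosome 10, 80826656 to 80829290, plus strand), the antizyme, had 474, 293, 328 and 1297 FPKM in NP replicates 1 to 4. It had 835, 343, 79.7 and 1134 FPKM in P replicates 1 to 4. The lowest and the highest of the 8 libraries were P replicate 3 and NP replicate 4. The means were 598 ± 473 FPKM in NP and 598 ± 475 FPKM in P (SD, n = 4). Oaz1 exceeded 98.6% of the genes tested on average in NP and 97.5% in P. Its log2 fold change was −0.29 ± 0.80 (SE, adjusted p = 0.883 in limma), and turned to 1.04 when libraries were set to one median, to 0.17 without NP replicate 4 and to 0.48 without P replicate 3. The length behind its FPKM values was 2558 bp, whereas its principal transcript has 1044 bases. A processed pseudogene, Oaz1-ps, was 99.7% identical over 685 bases.

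Translation of Oaz1 is itself controlled by polyamines, because ribosomes must shift by 1 base at an early stop codon to make the full protein, and polyamines favour the shift. In the RefSeq record this site lies after 68 codons, where the base at position 80828295 is skipped. The site is shown because ribosomes on Oaz1 mRNA in P may stop there or continue, which FPKM values cannot separate. It is read from chr10:80828281-80828310 on the plus strand of GRCm38, with the stop codon of the first frame in capitals:
Oaz1: ctcggtggtgctccTGAtgtccctcaccca

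Azin1 (chromosome 15, 38487430 to 38519266, minus strand), the antizyme inhibitor, is related to Odc1 but has no decarboxylase activity. It had 16.7, 3.09, 25.6 and 26.6 FPKM in NP replicates 1 to 4. It had 10.2, 6.26, 168 and 3.12 FPKM in P replicates 1 to 4. P replicate 3 stood far above the rest, with 89.6% of the summed FPKM of P on 4659 reads, and the other 3 P libraries lay within the NP range. The means were 18.0 ± 10.9 FPKM in NP and 46.9 ± 80.9 FPKM in P (SD, n = 4), and P fell to 6.53 FPKM without replicate 3. Its log2 fold change was 0.02 ± 1.09 (SE, adjusted p = 0.995 in limma). It turned to −1.13 without P replicate 3, to −0.61 without NP replicate 2, to −0.01 with a pseudocount of 0.1 and to −0.21 with voom. With one median FPKM it was 1.22. An antisense gene, Gm49077, shares 359 bases with the principal Azin1 transcript, and the library kit does not mark strand, so reads from that stretch cannot be assigned to either gene.

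The plot of log2 fold changes under other settings shows which of the 9 genes kept their direction. Amd1, Paox and Sat1 stayed above 0 and Srm below 0 in all 15 other settings, while the other 5 genes changed sign in at least 1. No setting brought any of the 9 genes to a call.

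**Figure D3:**
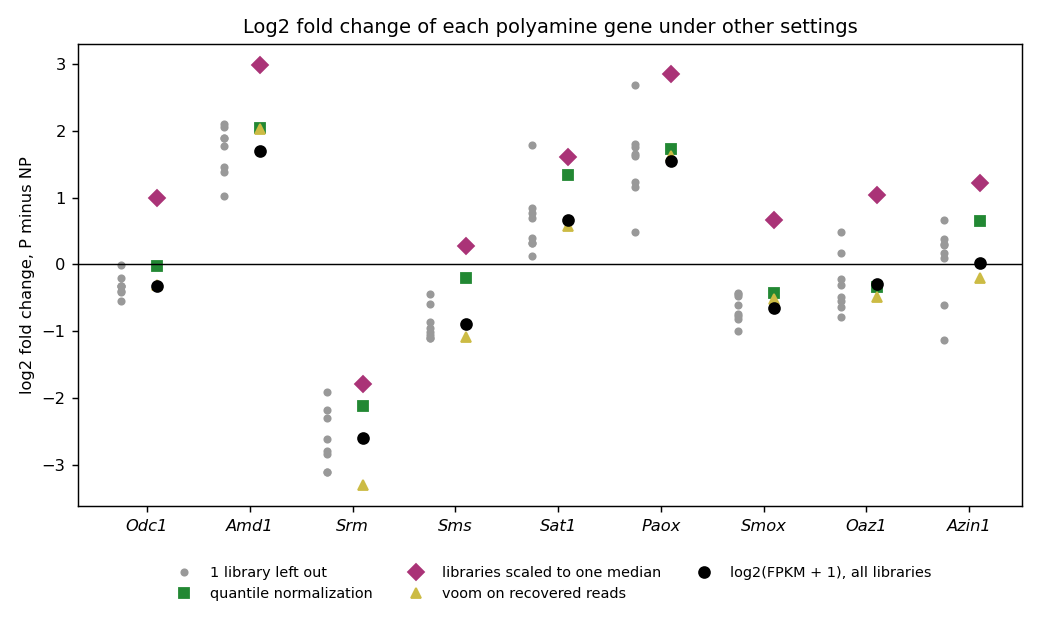
Log2 fold change of P over NP (vertical axis) for each of the 9 polyamine genes. Black circles show log2(FPKM + 1) with all libraries, green squares quantile normalization, purple diamonds libraries scaled to one median, yellow triangles voom on recovered reads, and grey dots the fits that leave out 1 library. Paox ranges from 0.48 to 2.86 and Srm from −3.31 to −1.79 among the values plotted.

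Ratios of genes within one library do not depend on how libraries are scaled to each other, apart from the pseudocount, and 4 were compared between the pools. Each was tested with an exact permutation test over 70 assignments, 2-sided, where the smallest p is 0.029, and adjusted over the 4 ratios. The log2 ratio of Paox to Smox, the oxidases of acetylated and of free spermine, was −1.18, −1.36, −1.29 and −0.63 in NP replicates 1 to 4. Among P replicates 1 to 4 it was 1.67, −2.78, 1.003 and 4.46. Smox exceeded Paox in all NP libraries, while Paox exceeded Smox in 3 of the 4 P libraries. The mean was −1.12 ± 0.33 in NP and 1.09 ± 2.98 in P (SD, n = 4), a difference of 2.21 (exact permutation p = 0.143, adjusted p = 0.286). This difference was 1.08 without P replicate 4 and 3.49 without P replicate 2.

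The log2 ratio of Sms to Srm, the enzymes that make spermine and spermidine, was −1.17, −2.71, −0.05 and 0.65 in NP replicates 1 to 4. In P replicates 1 to 4 it was 0.01, −0.42, 2.31 and 1.67. P replicates 3 and 4 exceeded every NP library, but the pools overlapped. The means were −0.82 ± 1.46 in NP and 0.89 ± 1.30 in P (SD, n = 4), which differed by 1.71 (exact permutation p = 0.143, adjusted p = 0.286). The difference was 1.08 without NP replicate 2. P replicate 4 entered with Srm at 0, so its ratio rests on the pseudocount, and with a pseudocount of 0.1 the difference was 2.61.

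The balance of Odc1 and of its regulators varied between libraries more than between pools. The log2 ratio of Odc1 to Oaz1 averaged −3.33 ± 0.94 in NP and −3.35 ± 1.77 in P (SD, n = 4), a difference of −0.02 (exact permutation p = 1, adjusted p = 1). Oaz1 exceeded Odc1 in all 8 libraries, least in P replicate 3 at −0.79 and most in P replicate 4 at −4.84. The log2 ratio of Azin1 to Oaz1 averaged −5.02 ± 1.10 in NP and −4.71 ± 4.00 in P (SD, n = 4), a difference of 0.32 (exact permutation p = 0.971, adjusted p = 1). P replicate 3, at 1.07, was the only library in which Azin1 exceeded its target Oaz1, and P replicate 4 was lowest at −8.11.

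**Figure D4:**
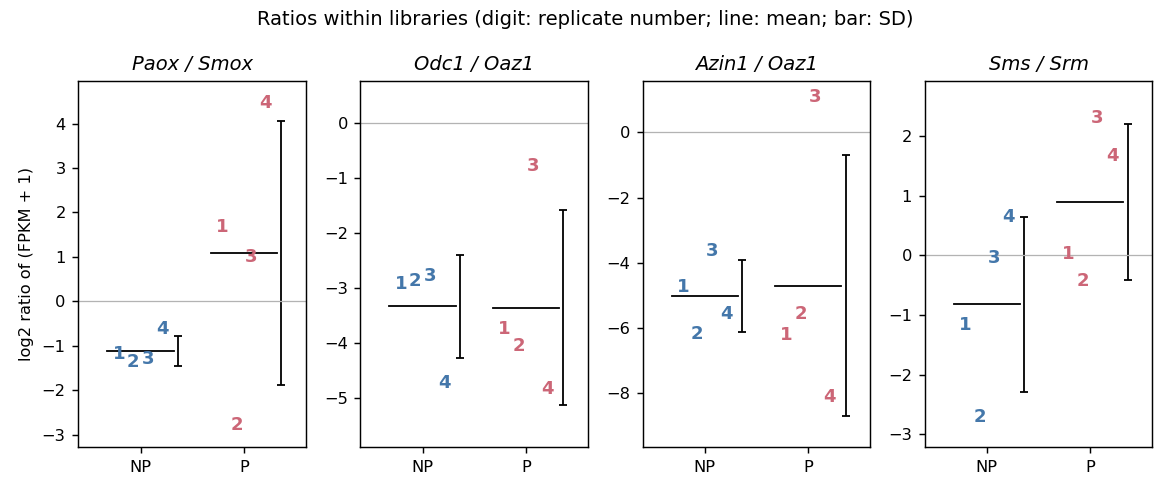
Log2 ratios of (FPKM + 1) of 2 genes within each library (vertical axis, with its own scale in each panel) in NP (blue) and P (red). Digits are replicate numbers, lines are means and bars are SD (n = 4). The ratio of Paox to Smox is below 0 in all NP libraries and above 0 in P replicates 1, 3 and 4.

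The principal transcripts of the 9 genes differ in features that bear on translation. Upstream ATG triplets in the 5′UTR, which can divert scanning ribosomes, were found in 5 of the 9 genes, against 51.7% of 11724 genes tested with a coding transcript. Sms had 4 of them, Azin1 3, Odc1 and Sat1 2 each, and Amd1 1. Srm, Paox, Smox and Oaz1 had none. The 5′UTR was longest in Azin1 (590 bases) and Odc1 (489 bases) and shortest in Paox (69 bases) and Oaz1 (74 bases), with a median of 176 bases over all these genes. The 3′UTR ranged from 286 bases in Oaz1 to 3071 bases in Paox, around a median of 953 bases. Upstream ATG triplets occurred on both sides: Amd1, Sat1 and Azin1 (with them) and Paox (with none) had log2 fold changes above 0, and Odc1 and Sms (with them) and Srm, Smox and Oaz1 (with none) below 0. The 4 genes above 0 had 3′UTRs of 365 (Sat1), 1871 (Amd1), 2934 (Azin1) and 3071 bases (Paox). These lengths are of the annotated principal transcripts. The FPKM steps of Paox corresponded to 1765 bp, which cannot hold its 3071-base 3′UTR. Of the 5 below 0, Oaz1, Smox, Srm and Odc1 had 286 to 333 bases and Sms had 2282 bases. This order of 3′UTR lengths was noticed in 9 genes, was not tested, and rests on signs that changed between settings for 5 of them.

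Genes whose levels followed Paox or Odc1 most closely across the 8 libraries were sought among 6414 genes with a mean above 10 FPKM, by Pearson's r of log2(FPKM + 1). The libraries share depth and pool, so these values are a description. For Paox they were Gm10307 (r = 0.965), Cct7 (0.951), which encodes a subunit of the CCT chaperonin, Gm13199 (0.944), Adsl (0.943), which encodes adenylosuccinate lyase of purine synthesis, and Cpa1 (0.941), which encodes a carboxypeptidase. Without the 2 libraries farthest from the median of Paox, r was 0.963 for Gm10307 and 0.957 for Cct7 but 0.746 for Gm13199. For Odc1 they were Tmem41b (0.962), Sin3a (0.911), Umps (0.910), Hdac3 (0.902) and Csnk1g2 (0.901). Without the 2 farthest libraries, Tmem41b stayed at 0.909, whereas Sin3a fell to 0.440 and Hdac3 to 0.358.

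Around the core pathway, 27 further genes were listed, of which 24 had a value above 0 and 21 were tested. Of these, 0 were called in limma, 4 had an unadjusted p under 0.05, all lower in P (Mat1a, Mri1, Apip and Dhps), against 9.95% of all genes in either direction. With voom, 1 (Dhps, lower in P) was called, against 1.04% of all genes lower in P. The log2 fold change was above 0 in 9 and below 0 in 12 of the 21, with a median of −0.32, where 28.6% of all genes were above 0 and their median was −0.39. Among the relatives of the 9 genes, Sat2 and Satl1 were at 0 in all libraries, and Oaz2, a second antizyme, had 7.58 ± 1.31 FPKM in NP and 6.99 ± 4.66 FPKM in P (SD, n = 4). The mean of Oaz2 was thus far below that of Oaz1, 598 FPKM in each pool.

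Polyamine synthesis draws on ornithine and on S-adenosylmethionine. Arg2, the mitochondrial arginase that yields ornithine, was the most abundant gene of precursor supply, with 501 ± 153 FPKM in NP and 760 ± 646 FPKM in P (SD, n = 4), and Arg1, the liver arginase, was at 0 throughout. For Arg2 the log2 fold change was 0.24 ± 0.65 (SE, adjusted p = 0.883 in limma), but −0.27 without P replicate 1, which held 53.7% of the summed FPKM of P, and near 0 without NP replicate 3 or P replicate 3. Mat1a, a methionine adenosyltransferase best known from liver, had 52.6 ± 21.8 FPKM in NP and 16.6 ± 11.9 FPKM in P, with a log2 fold change of −1.72 ± 0.67 (SE, adjusted p = 0.440 in limma). Mat2a, the form of most other tissues, had 79.7 ± 43.6 FPKM in NP and 103 ± 78.4 FPKM in P (SD, n = 4).

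The methionine salvage pathway recycles the methylthioadenosine left by Srm and Sms. All 5 of its genes had log2 fold changes below 0, from −1.97 to −0.32, without a call. Adi1 turned to 0.11 with quantile normalization and to 0.04 without NP replicate 3. With one median FPKM, Adi1 was at −0.001 and Enoph1 at −0.09. Most genes lay below 0 in the main fit, since only 28.6% of all genes tested were above 0. Enoph1 was the most abundant, at 21.4 ± 9.84 FPKM in NP and 11.9 ± 14.9 FPKM in P (SD, n = 4). Apip, the dehydratase of this pathway, had 3.76, 9.24, 8.24 and 6.98 FPKM in NP replicates 1 to 4. P replicates 1 to 4 had 0.638, 1.56, 0.450 and 1.49 FPKM. All NP libraries of Apip exceeded all its P libraries, as in 5.92% of all genes. Its P values rested on only 3, 5, 2 and 4 reads in replicates 1 to 4, and its NP values on 12, 12, 60 and 53 reads. The log2 fold change was −1.97 ± 0.79 (SE, adjusted p = 0.450 in limma).

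Spermidine is also the substrate from which hypusine is built on the translation factor eIF5A, first by deoxyhypusine synthase (Dhps) and then by deoxyhypusine hydroxylase (Dohh). Dhps (chromosome 8, 85071757 to 85075162, plus strand) had 23.3, 30.1, 16.8 and 21.02 FPKM in NP replicates 1 to 4. P replicates 1 to 4 had 0.916, 1.48, 0.0968 and 1.61 FPKM. Every P library lay far below every NP library, and 5.92% of all genes had all NP libraries above all P libraries. The P values of Dhps rested on 10, 11, 1 and 10 reads in replicates 1 to 4. Its NP values rested on 173, 91, 284 and 371 reads. The log2 fold change was −3.60 ± 0.79 (SE), with an unadjusted p of 0.000434, rank 16 of the genes tested, and an adjusted p of 0.344 in limma. With voom it was −4.74 with an adjusted p of 0.0889, a call at the threshold used, and over all 15 other settings the adjusted p ran from 0.0889 to 0.709. Eif5a itself had 46.4 ± 35.7 FPKM in NP and 72.7 ± 59.9 FPKM in P (SD, n = 4), and its log2 fold change was 0.76 ± 0.76 (SE, adjusted p = 0.698 in limma). Dohh had 2.22 ± 1.30 FPKM in NP and 2.66 ± 2.21 FPKM in P (SD, n = 4).

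Among genes of polyamine transport, Atp13a3, a transporter that brings polyamines into cells, had 26.2, 12.1, 24.6 and 16.2 FPKM in NP replicates 1 to 4. It had 28.0, 39.5, 30.8 and 28.2 FPKM in P replicates 1 to 4. Every P library lay above every NP library, as in 0.357% of all genes, but P replicate 1 (28.0) lay close to NP replicate 1 (26.2). The log2 fold change was 0.70 ± 0.61 (SE, adjusted p = 0.667 in limma). Slc3a2, a subunit of amino acid transporters that has been linked to polyamine export, was the most abundant of the group, with 36.7 ± 27.8 FPKM in NP and 46.0 ± 42.0 FPKM in P (SD, n = 4).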

How the data were processed

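RNA of 4 NP and 4 P libraries was analysed, grouped by the titles in the labels. The authors depleted ribosomal RNA, amplified cDNA made with oligo(dT) and random primers, and sequenced Nextera libraries. Per the labels and methods, reads were trimmed with Trim Galore 0.4.1, checked with FastQC 0.11.5, mapped to GRCm38 with HISAT2 2.0.5 and quantified in Seqmonk. The deposited values are FPKM for each gene and library on a linear scale. No source used here states how copies, strand and read pairs were counted. Tables of the authors' means, fold changes, p-values and DESeq2 results were not used.

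The 14292 genes whose mean exceeded 0.1 FPKM in either pool were tested 2-sided on log2(FPKM + 1) by limma-trend (limma 3.58.1, R 4.3.3). Adjustment was by Benjamini-Hochberg, and calls were made under 0.1. Each gene's FPKM values rise in equal steps, so reads were recovered for 84.2% of 15585 genes above 0 (94.0% of values above 0 were whole within a tolerance of 0.01 plus 2e-06 of the count, at most 0.1). A step may be a read or a read pair. Lengths were taken from GENCODE vM21 for 6978 genes and searched between 100 and 30000 bp for 6149. Whole reads were fitted with voom, an alternative chosen after seeing the data. The floor of a count of 0 was 3 reads. This floor covers counting error only, since amplified reads without molecular identifiers are not independent molecules. The intervals of log2 fold changes come from the limma fit and rest on the spread between libraries. The limma fit was run on simulated data with normally distributed noise of one size and no shift between library medians. These libraries differ in both respects, so that run does not give error rates or power for them. Other alternatives were a pseudocount of 0.1, no filter, a filter of 1 FPKM, quantile normalization, one median FPKM, a replicate block, and each library left out.

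The 9 genes and the further gene lists were chosen with earlier results of these data known. Named were the 9 genes, the 5 genes most like Paox and Odc1, and pathway genes that passed the test, did not overlap between pools or were the most abundant of their group. Sat2, Satl1, Arg1, Mat1a, Mat2a, Mri1, Dohh, Amd2 and Amd-ps3, and the genes with a library far from the others, fall outside this rule and were chosen after their values were seen. Of the 27 pathway genes, Azin2 was found as Adc and Slc18b1 as 1110021L09Rik, through RefSeq synonyms. Near-copies were sought with blastn 2.17.0 (at least 95% identity over at least 150 bases), and sequences come from RefSeq GRCm38.p6 and GENCODE vM21. Exact tests went through all assignments in Python 3.11.15 with numpy 2.4.6.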

Additional observations from a re-analysis of the deposited data

Results flagged for a closer look

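In 68 groups of 4 libraries, 10 had a library far from the other 3 by Dixon's criterion, which would mark about 1 in 20 groups of normally distributed values. FPKM values are skewed, and over all genes tested the same criterion marked 22.8% of genes in NP and 34.1% in P. Of the 10, those in P replicate 3 were Azin1 (168 FPKM), Enoph1 (34.0 FPKM), Oaz3 (0.247 FPKM) and Adi1 (1.07 FPKM). In P replicate 1 they were Oat (134 FPKM), Eif5a (162 FPKM) and Mri1 (0.520 FPKM), and in P replicate 4 Slc18b1 (1.38 FPKM). Oaz3, Adi1, Mri1 and Slc18b1 were at 0 in the other 3 P libraries. In NP replicate 4, Eif5a2 had 9.68 FPKM, and the log2 ratio of Odc1 to Oaz1 was −4.73 against −2.93 to −2.78 in the other NP libraries.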

How the results depend on the processing

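The count of genes called over all genes, 3 with limma, was 5 with a pseudocount of 0.1, 0 with quantile normalization, 0 with one median FPKM, 0 without the filter, 5 with a filter of 1 FPKM, 131 with voom and 0 to 5 when 1 library was left out (0 without any 1 NP library or P replicate 3, and 5 without P replicate 1). The causes of these shifts were not tested. Genes of the 9 with a log2 fold change above 0 numbered 4 in the main fit. With one median FPKM they numbered 8, against 58.1% of all genes. There Smox turned to 0.66, Odc1 to 0.99, Sms to 0.28 and Oaz1 to 1.04. The median of all genes moved from −0.39 to −0.83, −0.02, 0.21 and −0.89 with the pseudocount of 0.1, quantile normalization, one median and voom. Azin1 turned to −0.014 with a pseudocount of 0.1 and to −0.21 with voom. With 1 library left out, Azin1 ranged from −1.13 to 0.66, Oaz1 from −0.79 to 0.48, the difference in log2 ratio of Odc1 to Oaz1 from −0.88 to 0.47 and that of Azin1 to Oaz1 from −1.61 to 1.45. Paox, Sat1, Amd1, Srm and the ratios of Paox to Smox (1.08 to 3.49) and of Sms to Srm (1.08 to 2.61) kept their direction and side of the threshold in each alternative run. With the replicate block 1 gene was called over all genes and none of the 9. Deviations of libraries sharing a number correlated at 0.0518 to 0.251 (other numbers −0.135 to 0.136), and NP replicate 2 correlated best with P replicate 1. Each profile gave both pools, but no source used here ties the numbers of NP and P to one profile, so the fit without the block was kept. By number, the ratio of Sms to Srm was higher in P in 4 of 4, and Smox, like Srm, lower in P in 4 of 4. The share of all genes with such an order was not computed. Only 28.6% of all genes had a log2 fold change above 0. Depth limits Srm in P replicate 4 (0 reads) and Sat1 there (1 read). It also limits Dhps in P (1 to 11 reads in each library) and Apip in P (2 to 5 reads).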
